A study of Homo sapiens with 24 samples.

Results

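The comparison set 4 h of exposure to SK-3-91 against 1 h of exposure, within treated cells, with no untreated column in the test. SK-3-91, labelled as a degrader of many kinases, was given to MOLT4, an established human T-cell acute lymphoblastic leukaemia line, and RNA was sequenced as single-end reads of 50 bases. The 4 libraries labelled SK-3-91 at 4 h and the 4 labelled SK-3-91 at 1 h were taken by their labels, so 8 of the 24 libraries in the series and 9820 of its 9822 genes entered the test. No gene of the deposited table had a mean under 32.04 reads over the 24 libraries, by a filter not given in the sources used here, so shares of genes below are shares of this table, and a listed gene outside it has no known level. The remaining libraries are 8 treated or solvent libraries at 8 h and 8 DMSO (solvent) libraries at 1 and 4 h, of which the latter served only as a clock of culture time. Both treated groups differ in time alone as far as the labels say, the dose is not given in the sources used here, and the labels do not say whether replicates were separate cultures. The p-values therefore reflect the scatter of these samples alone, which could be technical.

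A degrader of this kind joins a kinase-binding part to a part that recruits a ubiquitin ligase, so that bound kinases are tagged and destroyed by the proteasome. Kinases relay growth signals from the cell surface, drive the cell cycle and, as the transcription kinases, release RNA polymerase II into elongation. Transcripts differ widely in lifetime: those of many signalling and transcription factor genes are short-lived, and those of ribosomal protein and respiratory chain genes are long-lived. RNA-seq counts give shares of a library and not molecules per cell, and in bulk RNA fewer cells of a type and less RNA per cell cannot be told apart.

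Counted reads averaged 13.6 ± 0.032 megareads at 1 h and 10.8 ± 0.097 megareads at 4 h (SD, n = 4 each). The 4 h total was 79.2% of the 1 h total, and no library of one time overlapped the other (exact permutation test, two-sided, p = 0.0286, the smallest that 4 against 4 allows). Levels are in CPM, counts per megaread of a library after scaling. On log2 CPM the leading principal component separated the times and held 92.9% of the variance. Replicate 3 at 4 h stood apart on the second, which held 1.96%, and so counts are also given without it below. Of 16 markers of a T-cell leukaemia line, 14 were in the table, of which 5 were higher at 4 h, 6 lower and 3 not called. CD3E at 1081 ± 44.6 CPM at 1 h and 1861 ± 116 CPM at 4 h (SD, n = 4) and PTPRC at 310.3 ± 4.66 CPM at 1 h and 402 ± 11.6 CPM at 4 h (SD, n = 4) were among the higher. CD2 at 101 ± 2.91 CPM at 1 h and 11.9 ± 0.415 CPM at 4 h (SD, n = 4) was among the lower, with CD5, CD3G and both RAG genes. TAL1 and TRBC1 were not among the genes analysed here. Of 65 markers of B, myeloid, erythroid, epithelial, fibroblast and endothelial cells, 6 were measured, and their summed level was 246 to 278 CPM at 1 h and 239.8 to 294 CPM at 4 h, with no erythroid marker among them.

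Most of the measured transcriptome moved between 1 and 4 h. At an adjusted p under 0.05, 4047 genes (41.2% of those tested) were higher at 4 h and 4253 (43.3%) were lower, together 84.5%. The 4 libraries at 4 h lay wholly above the 4 at 1 h for 3778 genes (38.5%) and wholly below them for 3990 (40.6%). Larger changes were more often decreases: 543 genes (5.53%) rose and 1263 (12.9%) fell by a factor of 2 or more, and past 4-fold the counts were 56 and 203. Past 8-fold, 6 genes were higher and 20 lower. The log2 fold changes ran from -4.21 to 4.52 with a median of -0.02. Without replicate 3 at 4 h 4072 genes were higher and 4205 lower, and 566 and 1265 of them by 2-fold or more.

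These counts rest on scaling factors that hold most genes still, and the 2 groups differed in them, from 1.087 to 1.098 at 1 h and from 0.907 to 0.920 at 4 h. Scaled by total counts alone, the median of all genes moved by -0.26 on the log2 scale, and 2759 genes were higher against 5602 lower, so that 33.0% rather than 48.8% of calls were increases. The 10 most abundant genes held 3.68% to 3.83% of reads at 1 h and 4.96% to 5.26% at 4 h. Every change below is therefore relative to the other genes, and counts over gene lists stand beside the 41.2% higher and 43.3% lower of all genes. Counts of list members changed at least 2-fold stand beside 5.53% higher and 12.9% lower. Counts over lists in DMSO stand beside 17.5% higher and 21.2% lower.

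**Figure D1:**
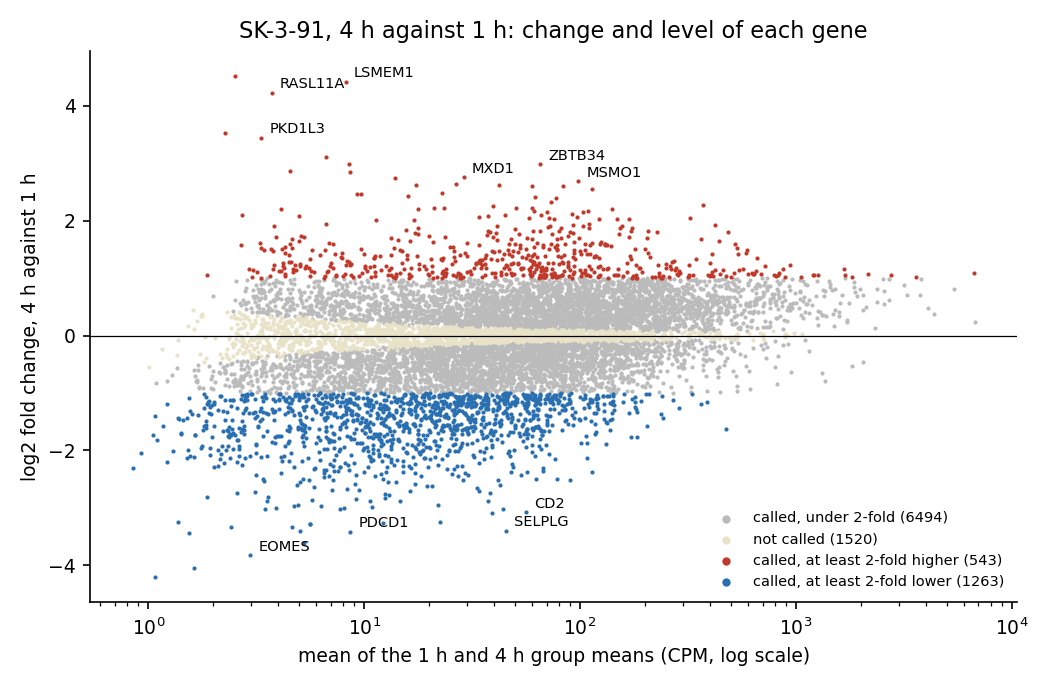
Log2 fold change at 4 h against 1 h in SK-3-91 (vertical) against the mean level of each of the 9820 genes in CPM (horizontal, log scale); each point is 1 gene, coloured by its call, and genes named beside points are among the largest changes. The 1263 genes that fell 2-fold or more lie mostly at low and middle levels, and the 543 that rose as much are spread over the range.

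The 12 largest increases, among genes required to show no overlap between the times, ran from a log2 fold change of 2.64 to 4.42. ZBTB34, a zinc-finger gene with a BTB domain, stood at 13.4, 16.1, 13.5 and 15.1 CPM in the 1 h libraries and 111, 108, 121 and 122 CPM in the 4 h libraries. Its 4 h libraries lay far above all 1 h libraries (log2 fold change 2.99 ± 0.06, adjusted p = 5.3e-28). Here and below, values in brackets after a gene are log2 fold changes at 4 h against 1 h, with the standard error after the ± sign. MXD1, whose protein pairs with MAX and represses genes that MYC activates, stood at 7.45, 7.41, 7.16 and 7.76 CPM in the 1 h libraries and 48.1, 49.9, 50.6 and 52.7 CPM in the 4 h libraries (2.76 ± 0.07, adjusted p = 1.6e-25). MSMO1, a sterol oxidase of cholesterol synthesis, read 25.6, 24.6, 27.5 and 27.3 CPM in the 1 h libraries and 169, 163, 160.1 and 185 CPM in the 4 h libraries (2.69 ± 0.05, adjusted p = 2.9e-28). The 4 h values of these 3 genes were close together, with an SD of at most 11.3 CPM. From 1 to 4 h in DMSO, MSMO1 rose (0.77), MXD1 fell (-0.70) and ZBTB34 was not called (-0.12). The 250 bases before the start of ZBTB34 (chr9:126860389-126860638, plus strand) and MXD1 (chr2:69914859-69915108, plus strand) are shown because both rose from a clear level at 1 h, and they are from RefSeq on GRCh38.p14, 5′ to 3′, with capitals marking the motifs described further on.
ZBTB34: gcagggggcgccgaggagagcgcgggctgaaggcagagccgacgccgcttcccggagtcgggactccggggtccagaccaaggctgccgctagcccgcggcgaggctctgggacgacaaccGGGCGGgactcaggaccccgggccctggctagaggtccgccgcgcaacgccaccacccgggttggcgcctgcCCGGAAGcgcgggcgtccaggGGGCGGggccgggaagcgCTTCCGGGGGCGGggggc
MXD1: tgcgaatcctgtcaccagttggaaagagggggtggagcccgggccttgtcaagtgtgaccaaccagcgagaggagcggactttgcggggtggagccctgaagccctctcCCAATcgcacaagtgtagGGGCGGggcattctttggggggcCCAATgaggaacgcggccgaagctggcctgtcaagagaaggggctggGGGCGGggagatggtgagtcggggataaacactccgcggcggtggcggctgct

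Several of the other increases started close to nothing. LSMEM1 stood at 0.881, 0.4004, 0.803 and 0.8096 CPM in the 1 h libraries and 14.2, 14.3, 18.9 and 15.3 CPM in the 4 h libraries (4.42 ± 0.17, adjusted p = 4.9e-21), where the low 1 h value of replicate 2 lay apart from the other three. RASL11A, a small Ras-like GTPase, rested on 22 reads over the 4 libraries at 1 h and 280 at 4 h (4.23 ± 0.23). Other genes of this kind were PKD1L3, a polycystin-family gene (3.44 ± 0.21), and SLC26A5, which encodes the motor protein prestin of the inner ear (3.11 ± 0.17). TNFSF13B, the B-cell survival ligand BAFF, had the highest log2 fold change of all (4.52 ± 0.31), from 12 reads over the 4 libraries at 1 h to 191 at 4 h, but its 4 h mean was 4.84 CPM, under the 5 CPM asked of the 12. The remaining 5 of the 12 were MCC (2.98 ± 0.15), TLCD1 (2.86 ± 0.17), the noncoding RNA LINC00926 (2.85 ± 0.14), PPP2R3A, a regulatory subunit of protein phosphatase 2A (2.74 ± 0.1), and the hormone gene AMH (2.64 ± 0.07).

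Several surface and immune genes were among the 12 largest decreases, chosen by the same rule as the increases. T-lineage genes as a list were divided, with 13 of 37 higher and 16 lower. CD2, an adhesion receptor of T cells, stood at 99.2, 97.6, 104 and 101 CPM in the 1 h libraries and 12.02, 12.5, 11.5 and 11.7 CPM in the 4 h libraries (-3.07 ± 0.06, adjusted p = 2.1e-28). CD58, the ligand of CD2, stood at 22.4, 20.6, 21.7 and 24.1 CPM in the 1 h libraries and 1.43, 3.04, 2.04 and 2.701 CPM in the 4 h libraries (-3.26 ± 0.13, adjusted p = 1.2e-20). Receptor and ligand thus both fell. PDCD1, the inhibitory receptor PD-1, stood at 15.1, 15.9, 17.4 and 14.4 CPM in the 1 h libraries and 1.63, 1.83, 1.12 and 1.3003 CPM in the 4 h libraries (-3.41 ± 0.15, adjusted p = 7.2e-20). SELPLG, the selectin ligand PSGL-1, stood at 83.1, 80.7, 83.1 and 85.01 CPM in the 1 h libraries and 9.17, 7.41, 7.05 and 7.902 CPM in the 4 h libraries (-3.39 ± 0.07, adjusted p = 5.3e-28). No 4 h library of either gene came near the lowest 1 h library. EOMES, a T-box factor of effector T cells, stood at 4.27, 5.405, 6.29 and 6.14 CPM in the 1 h libraries and 0.204, 0.609, 0.613 and 0.10002 CPM in the 4 h libraries (-3.83 ± 0.29, adjusted p = 6.9e-14), with 15 reads left over the 4 libraries at 4 h. ULBP1, a ligand of the natural killer receptor NKG2D, changed by -3.32 ± 0.19. The 250 bases before the start of CD2 (chr1:116754180-116754429, plus strand) and PDCD1 (chr2:241858895-241859144, minus strand) are shown from the same table as the falling counterparts of the pair above.
CD2: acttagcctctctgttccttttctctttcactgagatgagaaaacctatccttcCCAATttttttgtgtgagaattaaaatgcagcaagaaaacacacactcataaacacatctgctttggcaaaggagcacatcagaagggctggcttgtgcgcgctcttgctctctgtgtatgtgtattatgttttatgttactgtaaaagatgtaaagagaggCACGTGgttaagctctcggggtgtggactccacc
PDCD1: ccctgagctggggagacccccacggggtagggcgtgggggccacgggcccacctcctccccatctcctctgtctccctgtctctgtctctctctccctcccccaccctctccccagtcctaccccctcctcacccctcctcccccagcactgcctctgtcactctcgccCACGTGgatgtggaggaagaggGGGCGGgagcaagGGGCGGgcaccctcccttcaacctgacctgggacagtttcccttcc

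The other large decreases included zinc-finger genes. The genes ZNF837 (-3.41 ± 0.19), ZNF200 (-3.28 ± 0.18) and ZNF672 (-3.09 ± 0.08), the CXXC-type zinc-finger gene CXXC5 (-3.28 ± 0.18) and C17orf97 (-3.61 ± 0.2) were among the 12. When each of the 8 libraries was left out in turn, the log2 fold changes of these 12 increases and 12 decreases moved by at most 0.32. Their highest adjusted p was 5.0e-12. The genes were chosen for size and separation in these same libraries, so small moves were favoured by the choice.

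**Figure D2:**
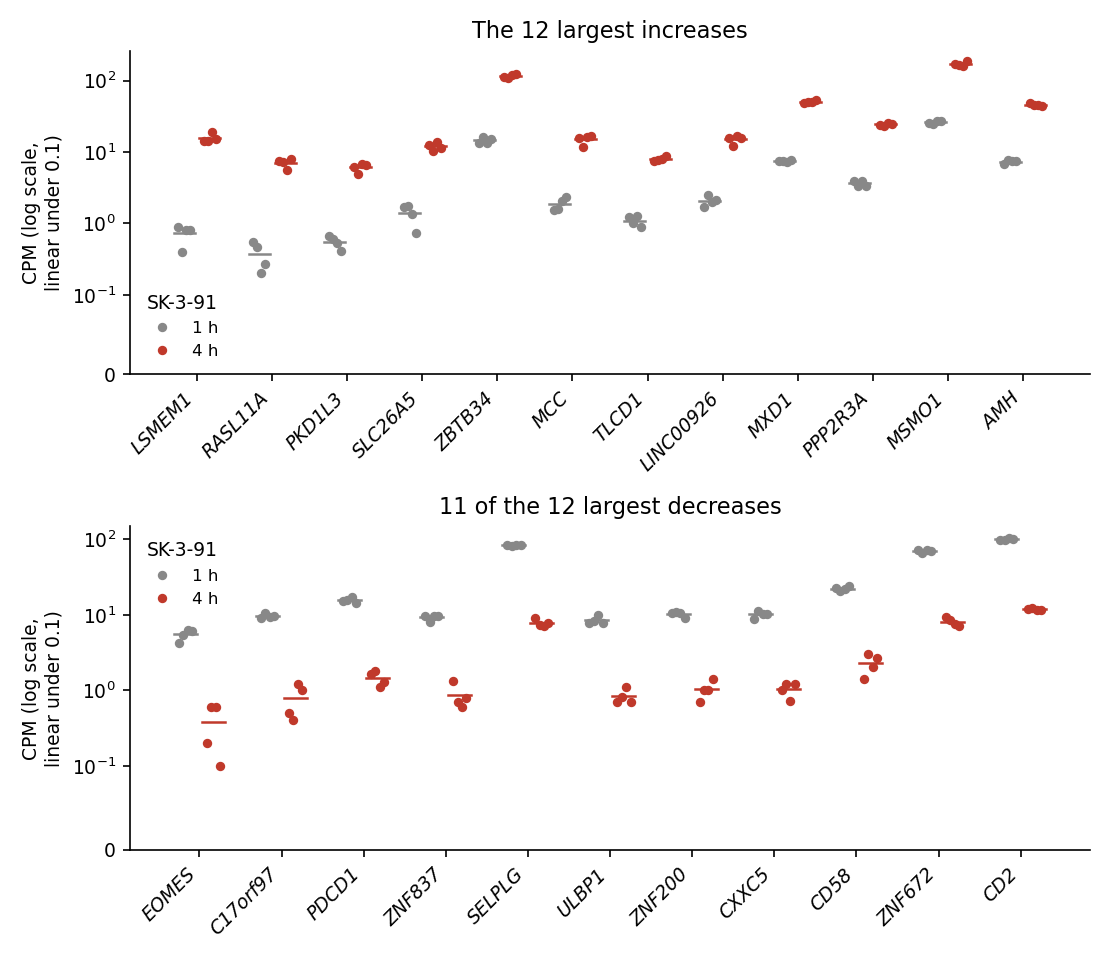
Level of the 12 largest increases (upper panel) and 11 of the 12 largest decreases (lower panel) in CPM on a log scale; each point is 1 library of SK-3-91 at 1 h or 4 h (n = 4 each) and each line is the group mean. The rule that chose the 23 genes shown required that no 4 h library overlap a 1 h library.

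In the RefSeq windows from 250 bases before to 50 after the start, motif content differed little between directions. Of the genes tested, 8101 (82.5%) had such a window, 432 of them in the set that rose 2-fold or more and 1035 in the set that fell as much. Motifs were searched by their letters on both strands, and matches may overlap. The GC box (letters GGGCGG) was found in 71.1% of rising windows and 69.4% of falling ones, against 71.7% of all genes tested and 44.6% of all 27305 windows in the table. The E-box (letters CACGTG) was found in 8.80% and 10.3%, against 10.999% of genes tested and 7.43% of all windows. The ETS-type element (letters CCGGAAG) was found in 19.4% and 21.9%, against 21.3% of genes tested and 10.7% of all windows. The TATA box core (letters TATAAA) was in 5.56% and 3.38%, against 4.73% of genes tested and 11.95% of all windows. The CCAAT box core, searched by those letters, was in 35.2% and 38.5%, against 37.3% of genes tested and 35.7% of all windows. The cAMP response element core (letters TGACGTC) was in 6.02% and 6.09%, against 6.10% of genes tested and 3.63% of all windows. In the printed stretches, ZBTB34, MXD1 and PDCD1 held GC boxes, MXD1 and CD2 the CCAAT box core, ZBTB34 ETS-type elements, and CD2 and PDCD1 an E-box each. A match describes letters only.

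Genes that answer growth signals within minutes, the immediate-early genes, mostly rose. Of 16 measured, 10 were higher and 4 lower, with a median log2 fold change of 0.64 against -0.02 over all genes. The same list also rose in DMSO, with 8 higher and 0 lower (median 0.19). By the interaction test, 11 of the 16 differed between the treatments, against 81.7% of all genes. KLF10 stood at 12.3, 12.6, 10.9 and 11.3 CPM in the 1 h libraries and 70.3, 67.6, 69.05 and 83.2 CPM in the 4 h libraries (2.62 ± 0.07, adjusted p = 5.3e-25). KLF6, a related zinc-finger factor, stood at 32.6, 34.3, 35.002 and 30.1 CPM in the 1 h libraries and 191, 179.8, 195 and 209 CPM in the 4 h libraries (2.55 ± 0.05, adjusted p = 5.3e-28). In both genes all 4 h values lay several-fold above the 1 h values. Both also rose in DMSO, KLF10 by 1.17 and KLF6 by 0.39 on the log2 scale. ZFP36, whose protein binds AU-rich elements and speeds mRNA decay, rose as well (1.54 ± 0.08), as did its relatives ZFP36L1 (0.86) and ZFP36L2 (1.52). EGR1, a classical target of the ERK pathway, rose by less (0.66 ± 0.15), and its change in DMSO was 1.01. FOSL2, a partner of JUN proteins, fell (-1.55 ± 0.16), and so did NR4A1 (-0.67), a nuclear receptor gene induced by antigen receptor signals, which rose in DMSO (1.07).

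Feedback and pathway genes of the kinase cascades went in both directions. Of 13 measured ERK output and feedback genes, 7 were higher and 6 lower (median 0.09), a majority that turned when total counts alone set the scale. PHLDA1 rose from 21 to 165 reads over the 4 libraries (3.53 ± 0.3), SPRED2, an inhibitor of the RAS pathway, rose (1.19 ± 0.04), and DUSP7, a phosphatase of ERK, fell (-1.06 ± 0.05). DUSP2, a nuclear phosphatase of the same kinases, read 6.37, 7.54, 7.63 and 5.46 CPM in the 1 h libraries and 9.68, 12.3, 6.33 and 8.802 CPM in the 4 h libraries. These groups overlapped (0.46 ± 0.14, adjusted p = 0.0042), and without 4 h replicate 2 the adjusted p was 0.062. Among 44 MAP kinase cascade genes, 25 were higher and 15 lower (median 0.22), and that majority also turned under total counts. The kinase gene MAP3K2 stood at 68.4, 64.9, 61.97 and 69.3 CPM in the 1 h libraries and 253, 247, 247 and 245 CPM in the 4 h libraries (1.91 ± 0.04, adjusted p = 1.7e-27), and the groups were widely separated. BRAF (1.05) and MAP3K1 (1.04) rose, while MAP3K11 (-1.07), MKNK2 (-1.05) and RPS6KA1 (-1.05) fell.

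The lists for other signal pathways were divided too. Of 36 PI3K, AKT and mTOR genes, 17 were higher and 14 lower. RHEB, the GTPase that activates mTOR complex 1, rose (1.37 ± 0.05), as did RICTOR, a subunit of the second mTOR complex (1.27 ± 0.06). Of 23 genes that FOXO factors induce, 12 were higher and 6 lower (median 0.28). ATG14, an autophagy gene, rose (2.06 ± 0.07) and SESN3 rose (1.36 ± 0.08), while GABARAPL1, which encodes an autophagosome membrane protein, fell (-1.84 ± 0.13). CDKN1B, the CDK inhibitor p27, stood at 16.7, 21.8, 17.5 and 17.001 CPM in the 1 h libraries and 30.3, 28.4, 29.9 and 36.1 CPM in the 4 h libraries (0.77 ± 0.08, adjusted p = 4.9e-10), with 1 h replicate 2 apart from the rest of its group but below every 4 h library. Among 26 p53 targets, 14 were higher and 9 lower, led by PPM1D, a phosphatase that dampens p53, at 22.8, 23.95, 22.7 and 25.3 CPM in the 1 h libraries and 146, 137, 144 and 149 CPM in the 4 h libraries (2.6 ± 0.05, adjusted p = 2.1e-28). The majorities of the PI3K, FOXO and p53 lists turned under total counts alone.

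Of 18 NF-kB targets, 5 were higher and 8 lower although their median was 0.05, and under the RLE scaling the sides were equal. NFKBIE, an inhibitor of NF-kB, fell (-1.57 ± 0.19), as did CD83 (-1.56 ± 0.08) and the subunit gene RELA (-0.99 ± 0.05). Of 15 JAK-STAT targets, 7 were higher and 6 lower, a majority that also turned under total counts. SOCS1 rose (1.03 ± 0.16) and SOCS2 fell (-0.97 ± 0.19), both encoding feedback inhibitors of cytokine receptors. CISH, of the same family, read 1.83, 1.53, 1.94 and 1.15 CPM in the 1 h libraries and 1.22, 0.812, 1.33 and 1.0002 CPM in the 4 h libraries. The groups overlapped, its adjusted p was 0.049, and leaving out single libraries carried that p as high as 0.15. ID3, an inhibitor of helix-loop-helix factors, fell (-1.14 ± 0.17), and its change in DMSO was -1.07.

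Transcription factor genes listed for T-cell leukaemia mostly fell. Of 16 measured, 3 were higher and 10 lower (median -0.35), and the majority held under each scaling tried. MYB stood at 682, 751, 726 and 718 CPM in the 1 h libraries and 228, 225, 239.5 and 238 CPM in the 4 h libraries (-1.63 ± 0.04, adjusted p = 3.9e-27). NOTCH1, the receptor most often mutated in this leukaemia, stood at 832, 830, 779.5 and 780.4 CPM in the 1 h libraries and 455, 422, 413 and 398 CPM in the 4 h libraries (-0.93 ± 0.04, adjusted p = 1.1e-20). All 4 h libraries of both genes lay under all 1 h libraries, and in DMSO both genes changed the other way, by 0.27 and 0.13. The ETS-family genes FLI1 (-1.74 ± 0.06) and ERG (-1.04 ± 0.05) fell, and LMO2 fell by 0.73 on the log2 scale. FLI1 rose in DMSO (0.24), while ERG fell there too (-0.39). MYC read 352, 354, 355 and 362 CPM in the 1 h libraries and 364, 398, 378 and 371 CPM in the 4 h libraries, with no overlap but a difference of 0.09 ± 0.03 with an adjusted p of 0.021. That call was lost without 4 h replicate 2 (adjusted p = 0.098) and the value was -0.17 under total counts. ZEB1 rose (0.53).

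Of 15 Notch pathway genes, 6 were higher and 7 lower. HES1, a repressor that Notch induces, stood at 12.9, 12.4, 14.4 and 12.8 CPM in the 1 h libraries and 36.8, 37.9, 40.3 and 38.4 CPM in the 4 h libraries (1.54 ± 0.07, adjusted p = 2.2e-19), opposite in direction to NOTCH1, and DTX3L, a ubiquitin ligase of the Deltex family, fell (-1.59 ± 0.06). T-lineage genes were also split, with 13 of 37 higher and 16 lower. Of the 37, 7 were at least 2-fold lower, against 12.9% of all genes. The signalling chain gene CD3E stood at 1129.7, 1031, 1058 and 1105 CPM in the 1 h libraries and 1894, 1788, 2009.97 and 1752 CPM in the 4 h libraries (0.78 ± 0.04, adjusted p = 1.7e-18), and CD7 rose (0.83), while CD2, CD1D (-2.18 ± 0.1) and the adaptor gene LCP2 (-1.73 ± 0.06) fell. The recombinase gene RAG2 also fell (-1.77 ± 0.12) but is uncertain, because a large part of its exons overlaps exons on the opposite strand. LCK, CD4 and CD8A did not pass the test, with log2 fold changes of -0.03, -0.01 and 0.05. Of 11 T-cell activation genes, 3 were higher and 7 lower (median -0.87), among them NFATC1 (-1.14) and NFATC2 (-0.95), both factors of calcium signalling.

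Genes of S phase fell more often than not. Of 57 G1/S and replication genes, 38 were lower and 16 higher (median -0.60). Of the 57, 13 were at least 2-fold lower, against 12.9% of all genes. EXO1, an exonuclease of replication and repair, stood at 61.5, 71.4, 67.6 and 63.8 CPM in the 1 h libraries and 8.15, 7.71, 8.89 and 11.002 CPM in the 4 h libraries (-2.88 ± 0.08, adjusted p = 7.8e-25). CHAF1A, which loads histones behind the fork, stood at 207, 207, 206 and 214 CPM in the 1 h libraries and 56.96, 56.03, 55.5 and 56.8 CPM in the 4 h libraries (-1.89 ± 0.04, adjusted p = 2.2e-27). In both genes the 4 h values lay far below the 1 h values, and the second varied little between libraries. CCNE1, the cyclin of S-phase entry, fell by 1.79 on the log2 scale. CDC25A (0.8) and TK1 (0.69) rose. In DMSO the same list held 42 lower and 1 higher genes, against 21.2% and 17.5% of all genes, with a median of -0.22.

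Mitotic genes fell in treated cells and rose in DMSO. Of 71 G2/M genes, 53 were lower and 13 higher with SK-3-91 (median -0.39), against 3 lower and 58 higher in DMSO (median 0.27), and 43 were lower in the first and higher in the second. Of all genes, 21.2% were lower and 17.5% higher in DMSO. By the interaction test, 66 of the 71 differed between the treatments, against 81.7% of all genes. AURKA, a spindle kinase, stood at 48.99, 52.05, 50.8 and 47.8 CPM in the 1 h libraries and 31.7, 27.3, 31.4 and 30.3 CPM in the 4 h libraries (-0.73 ± 0.06, adjusted p = 5.3e-13), and its change in DMSO was 0.69. KNSTRN, a kinetochore gene, fell further (-2.0 ± 0.08), and FZR1, an activator of the anaphase-promoting complex, also fell (-1.42 ± 0.06). KIF23 (1.14) and BIRC5 (0.72) rose. PRC1 rose as well (1.7 ± 0.04) but is uncertain, since 62.3% of its 32-base words occur in other genes. WEE1, which holds cells out of mitosis, read 82.7 ± 5.59 CPM at 1 h and 90.6 ± 2.28 CPM at 4 h (SD, n = 4) (0.13 ± 0.05, adjusted p = 0.013), and its value was -0.13 under total counts. DNA repair genes followed the same side, with 40 of 62 lower and 13 higher (median -0.35). FANCE (-2.21 ± 0.1) of the Fanconi anaemia pathway, TERF2 (-2.05 ± 0.06), which protects telomeres, and MSH6 (-1.58 ± 0.04) of mismatch repair fell.

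Genes of the transcription machinery were divided by complex. Of 26 transcription kinase and cyclin genes, 12 were higher and 8 lower, a majority that turned under total counts. The cyclins of P-TEFb, the complex that releases paused polymerase, both rose: CCNT1 stood at 77.5, 83.01, 85.999 and 84.1 CPM in the 1 h libraries and 181, 187, 192 and 180.4 CPM in the 4 h libraries (1.16 ± 0.04, adjusted p = 4.7e-22). CCNT2 stood at 62.5, 67.5, 65.99 and 61.8 CPM in the 1 h libraries and 181, 189, 188 and 223 CPM in the 4 h libraries (1.6 ± 0.05, adjusted p = 3.3e-23). Their kinase partner CDK9 read 47.9, 47.3, 48.3 and 47.6 CPM in the 1 h libraries and 44.1, 47.8, 50.7 and 50.8 CPM in the 4 h libraries, which overlapped and did not pass the test (0.02 ± 0.05, adjusted p = 0.77). The elongation gene ELL rose (1.41 ± 0.06), while MEPCE, which stabilises the inhibitory 7SK RNA, fell (-1.28 ± 0.05). CDK12 (-0.62 ± 0.04) and CDK7 (-0.67 ± 0.12) fell, and CDK13 did not pass the test (-0.01 ± 0.04) except under total counts.

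The largest polymerase subunit gene POLR2A stood at 492, 495, 457 and 482 CPM in the 1 h libraries and 714, 678, 750.4 and 646 CPM in the 4 h libraries (0.53 ± 0.04, adjusted p = 4.9e-14), with every 4 h library above every 1 h library. Of 47 RNA polymerase II and general factor genes, 23 were higher and 19 lower, and the sides turned under total counts. TAF3 (1.58 ± 0.05) and GTF2B (1.39 ± 0.05) rose, and GTF2E1 (-1.81 ± 0.11) and PAF1 (-1.12 ± 0.05) fell. Of 29 Mediator subunit genes, 16 (55.2%) were lower, with MED8 (-2.26 ± 0.11) and MED29 (-1.71 ± 0.05) among them, and 12 (41.4%) higher (median -0.28), shares not far from the 43.3% and 41.2% of all genes. RNA polymerase I and III genes fell in 18 of 31 cases, against 7 higher (median -0.52), among them POLR1E (-1.87 ± 0.07), POLR3C (-1.7 ± 0.09) and POLR3D (-1.66 ± 0.08), while the initiation factor gene GTF3C4 rose (1.69 ± 0.05). Of 72 histone-modifying enzyme genes, 32 were higher and 30 lower, sides that turned under total counts. The methyltransferase gene KMT5C fell (-1.84 ± 0.09) and the acetyltransferase gene KAT7 rose (1.56 ± 0.04).

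A large family, genes with a ZNF symbol, many of which encode DNA-binding repressors, fell. Of 349, 217 were lower and 83 higher (median -0.48), and 96 were at least 2-fold lower, while 21 rose as much. Over all genes the 2-fold shares were 12.9% lower and 5.53% higher. In DMSO 139 were lower and 44 higher (median -0.11), against 21.2% and 17.5% of all genes. ZNF583 fell to a mean of 0.811 CPM (-2.73 ± 0.22). Of the family, 58 are uncertain through shared sequence or overlap. Among 57 related ZBTB, ZSCAN, ZKSCAN and ZFP genes, 29 were lower and 20 higher, with ZBTB34 at one end and ZBTB48 (-2.29 ± 0.11) at the other.

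Genes of the cytosolic ribosome rose without exception. All 70 measured ribosomal protein genes were higher at 4 h, from 0.44 to 1.16 on the log2 scale (median 0.96). Of the 70, 27 were at least 2-fold higher, against 5.53% of all genes. Their summed level was 22385 to 24633 CPM over the 1 h libraries and 43619 to 47399.6 CPM over the 4 h libraries. In DMSO none was called higher and 4 were lower, against 17.5% and 21.2% of all genes, and the median was -0.01. All 70 differed between the treatments by the interaction test, against the same 81.7%. RPLP1, of the ribosomal stalk, stood at 1058, 994, 1033 and 1047 CPM in the 1 h libraries and 2392, 2306, 2026 and 2519.5 CPM in the 4 h libraries (1.16 ± 0.04, adjusted p = 1.4e-21), and its lowest 4 h value, in replicate 3, was still well above the 1 h group. Because 35 of the 70 share sequence or exons with other genes, single members are uncertain. The median was 0.71 under total counts.

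Genes that build the ribosome did not follow it. Of 73 nucleolar and ribosome biogenesis genes, 53 were lower and 15 higher (median -0.48). None was at least 2-fold higher, against 5.53% of all genes. RRP36 stood at 91.5, 89.7, 86.9 and 88.2 CPM in the 1 h libraries and 23.03, 24.7, 20.9 and 23.8 CPM in the 4 h libraries (-1.95 ± 0.06, adjusted p = 9.4e-25). SURF6 (-1.85 ± 0.06), NOL8 (-1.75 ± 0.06) and RRP1 (-1.66 ± 0.05) fell by similar amounts. Aminoacyl-tRNA synthetase genes also fell, 21 of 33 against 9 higher (median -0.39). FARSA, a subunit of the phenylalanine enzyme, stood at 281, 261, 259.5 and 261 CPM in the 1 h libraries and 78.3, 79.7, 79.5 and 76.6 CPM in the 4 h libraries (-1.76 ± 0.04, adjusted p = 7.5e-27), and RARS1 fell (-1.44 ± 0.05). The mitochondrial ribosome went the other way from the cytosolic one, with 40 of 69 genes lower and 21 higher (median -0.23). MRPL36 (-2.22 ± 0.13) and MRPS31 (-2.07 ± 0.09) fell. Translation factor genes had no clear side, with 28 of 61 higher and 24 lower, turning under upper-quartile scaling and total counts. The symbols searched also took methyltransferase genes of elongation factors, such as EEF1AKNMT (-2.37 ± 0.07), while the exchange factor subunit gene EIF2B4 fell (-1.19 ± 0.07).

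The respiratory chain rose with the cytosolic ribosome. Of 81 nuclear genes of oxidative phosphorylation, 69 were higher and 6 lower (median 0.79), and their summed level went from 9218 to 9929.9 CPM at 1 h to 15579 to 16909 CPM at 4 h. In DMSO 8 were higher and 1 lower, against 17.5% and 21.2% of all genes. COX6C, of cytochrome oxidase, stood at 105, 105, 99.3 and 112 CPM in the 1 h libraries and 231, 224, 211 and 239 CPM in the 4 h libraries (1.1 ± 0.04, adjusted p = 4.3e-21), and NDUFS6 (1.03) and ATP5F1B (0.99) rose likewise. The 6 lower members included 3 assembly factors, NDUFAF1 (-0.75), NDUFAF4 (-0.59) and NDUFAF5 (-0.39), beside NDUFV3 (-1.44 ± 0.07) and the uncertain SDHA (-0.66).

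RNA processing and protein turnover genes were mixed. Of 96 splicing factor genes, 58 were higher and 26 lower (median 0.28), although the largest changes were decreases, in PRPF4 (-1.97 ± 0.05) and LSM10 (-1.6 ± 0.08). Scaled by total counts alone, 47 were higher and 39 lower (median 0.03), against 2759 and 5602 of all genes. Genes of mRNA 3′ end processing and decay were lower in 35 of 61 cases (57.4%) and higher in 25 (median -0.20). SMG9 of nonsense-mediated decay stood at 90.6, 91.7, 87.8 and 88.7 CPM in the 1 h libraries and 16.8, 17.3, 17.7 and 14.603 CPM in the 4 h libraries (-2.44 ± 0.06, adjusted p = 1.6e-26), and the exosome genes EXOSC3 (-2.32 ± 0.09) and EXOSC4 (-1.99 ± 0.09) fell. Among 39 proteasome genes, 26 were higher and 11 lower (median 0.30), or 17 and 15 under total counts alone (median 0.04). PSMA7 rose (0.94 ± 0.04), and the catalytic subunit gene PSMB5 fell (-1.27 ± 0.07), as did PSMG1 (-1.2 ± 0.04) and PSMD5 (-1.18 ± 0.06), which encode assembly chaperones.

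The ligase genes through which degraders can act were measured. CRBN, a substrate receptor that many degraders recruit, stood at 32.9, 31.4, 34.1 and 31.03 CPM in the 1 h libraries and 27.6, 27.9, 26.4 and 24.1 CPM in the 4 h libraries (-0.29 ± 0.07, adjusted p = 1.8e-04), and its change in DMSO was -0.14 with no call for a difference between them (adjusted p = 0.12). Whether SK-3-91 recruits CRBN is not stated in the sources used here. Of 36 CRBN and cullin-RING genes, 15 were higher and 16 lower. CUL1 fell (-1.39 ± 0.05), and the signalosome gene COPS2 (1.26 ± 0.04) and the adaptor gene ELOB (1.17 ± 0.05) rose. Of 50 chaperone genes, 23 were higher and 19 lower, and both splits turned under a scaling. BAG4 rose (1.82 ± 0.05) and the collagen chaperone gene SERPINH1 fell (-1.88 ± 0.14).

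Stress and metabolic genes changed gene by gene. XBP1, the transcription factor of the unfolded protein response, stood at 78.2, 78.7, 84.7 and 82.4 CPM in the 1 h libraries and 14.2, 17.7, 15.5 and 18.7 CPM in the 4 h libraries (-2.29 ± 0.07, adjusted p = 1.0e-24). Of the 32 genes of that response, 14 were higher and 16 lower, and DNAJB9 (-1.84 ± 0.18) and EDEM3 (-1.69 ± 0.06), which serve disposal of misfolded proteins, fell. Of 25 ATF4 target and amino acid genes, 15 were lower and 8 higher (median -0.26), led by STC2 (-2.97 ± 0.18). VEGFA rose (1.68 ± 0.06), and rose in DMSO too (0.97). Sterol synthesis held opposite extremes: MVK, mevalonate kinase, stood at 21.8, 21.8, 22.8 and 20.4 CPM in the 1 h libraries and 2.45, 2.03, 4.29 and 4.001 CPM in the 4 h libraries (-2.76 ± 0.13, adjusted p = 4.5e-19), while MSMO1 was among the largest increases. Over its 29 genes 14 were higher and 13 lower, sides that turned under upper-quartile scaling, with STARD4, a sterol transporter, higher (1.27 ± 0.05). The same list in DMSO held 17 higher and 1 lower (median 0.17), and MSMO1 rose there by 0.77 on the log2 scale.

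Of 42 glycolysis and hypoxia genes, 22 were higher and 17 lower (median 0.26), a majority that turned under total counts, and their summed level went from 18662 to 19688 CPM at 1 h to 29948 to 31557 CPM at 4 h. SLC16A3, a lactate exporter, fell (-2.63 ± 0.17), as did PFKFB3, a regulator of glycolytic flux (-1.57 ± 0.06), which rose in DMSO (0.8). Solute carrier genes were lower in 96 of 176 cases (54.5%) and higher in 59 (median -0.21), with SLC35C1, a GDP-fucose transporter, at -2.68 ± 0.14. Of 58 autophagy and lysosome genes, 34 were higher and 11 lower (median 0.25, or -0.01 under total counts). TFEB, the master transcription factor of lysosome genes, fell (-1.6 ± 0.16).

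Among 16 BCL-2 family genes, 8 were higher and 5 lower, sides that turned under total counts. MCL1, a short-lived survival protein, stood at 93.6, 98.8, 96.7 and 98.6 CPM in the 1 h libraries and 159, 157, 173 and 182 CPM in the 4 h libraries (0.79 ± 0.05, adjusted p = 6.3e-17). BMF, which promotes cell death, rested on 218 reads over the 4 libraries at 1 h and 44 at 4 h (-1.71 ± 0.24), and BAK1, a pore-forming death effector, and BCL2 fell (-1.01 ± 0.08 and -0.86 ± 0.09), while PMAIP1 rose (0.85). Of 40 interferon and antigen presentation genes, 17 were higher and 19 lower. The interferon-induced genes IFIT3 (-2.16 ± 0.13) and DDX58 (-1.55 ± 0.09), the latter the sensor RIG-I, fell.

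Lists of cell-cycle and tyrosine kinase transcripts were evenly divided under the scaling used. Of 36 cell-cycle kinase and CDK genes, 14 were higher and 15 lower, and of 31 tyrosine kinase genes 12 were higher and 12 lower. Under total counts the sides were 9 higher and 22 lower in the first list and 8 higher and 17 lower in the second. CDK6, an abundant transcript, stood at 3750.2, 3859.7, 3730.3 and 3883 CPM in the 1 h libraries and 5118, 4712, 4916 and 4888 CPM in the 4 h libraries (0.37 ± 0.03, adjusted p = 6.4e-12). CDK4 read 335 ± 16.6 CPM at 1 h and 349.996 ± 25.2 CPM at 4 h (SD, n = 4) and did not pass the test (0.06 ± 0.04, adjusted p = 0.16). It is uncertain through overlap on the opposite strand, passed without 4 h replicate 3 (adjusted p = 0.0033) and had a value of -0.19 under total counts. PLK4 (-1.28 ± 0.05) and TTK (-1.24 ± 0.06), kinases of centrosome copying and the spindle checkpoint, fell, and CDK8 rose (0.99 ± 0.07). The Src-family gene YES1 stood at 7.93, 8.61, 7.83 and 8.97 CPM in the 1 h libraries and 37.2, 37.2, 38.7 and 41.4 CPM in the 4 h libraries (2.21 ± 0.08, adjusted p = 2.4e-22), and CSK, the kinase that restrains that family, fell (-1.16 ± 0.04). The actin gene ACTB, often used as a reference, read 2848 ± 45.7 CPM at 1 h and 4639.7 ± 163 CPM at 4 h (SD, n = 4) (0.7 ± 0.03) and is uncertain because 25.3% of its words occur in other genes.

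**Figure D3:**
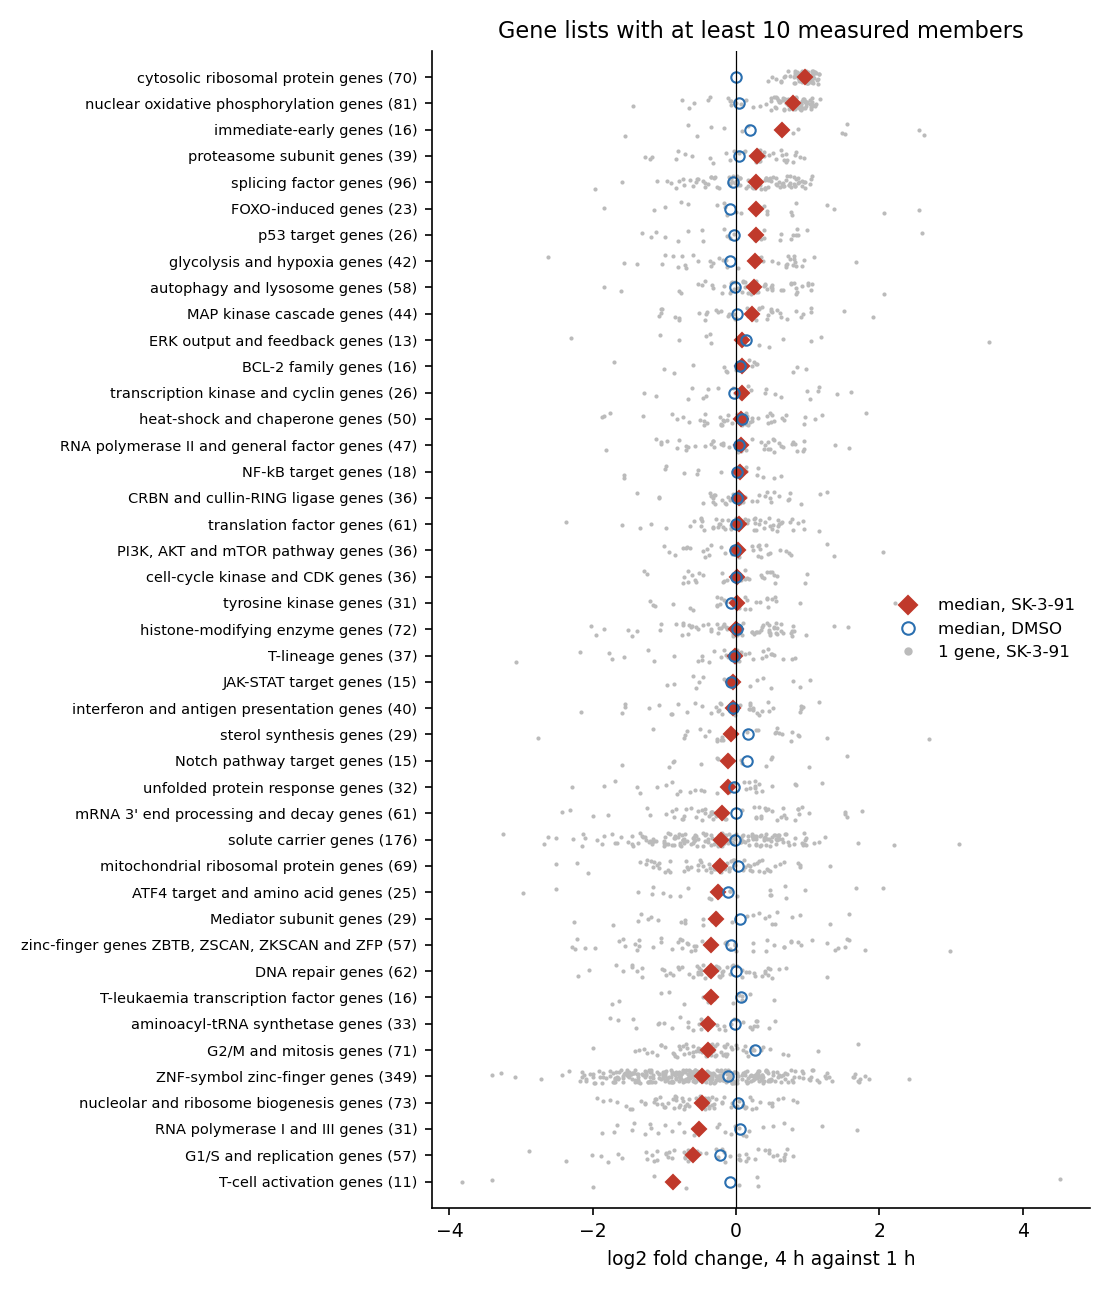
Log2 fold change at 4 h against 1 h for the 43 gene lists with at least 10 measured members (number in brackets); grey points are genes in SK-3-91, red diamonds the list median in SK-3-91 and blue circles the median in DMSO. Ribosomal protein genes (median 0.96) and oxidative phosphorylation genes (0.79) lie highest and T-cell activation genes (-0.87) lowest, while G2/M genes have medians on opposite sides of 0 in SK-3-91 (-0.39) and DMSO (0.27); 14 of the 22 medians above 0 in SK-3-91 turn below 0 under total counts alone, MAP kinase cascade and autophagy genes among them.

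Some markers of other cells moved too. IGLL1, a surrogate light chain gene that held most of the summed level, read 189 ± 14.9 CPM at 1 h and 212 ± 28.1 CPM at 4 h (SD, n = 4) (0.17 ± 0.06, adjusted p = 0.013), a call that was lost with several single libraries left out and a value that was -0.09 under total counts. VPREB1 fell (-1.26 ± 0.1) and CD79A rose (0.76 ± 0.09), both B-lineage genes. CD68 (uncertain), ESRP1 and PECAM1 changed by 1.02 ± 0.19, -0.45 ± 0.14 and -0.26 ± 0.06. The other 59 listed markers were not among the genes analysed here, and the part of such cells in the results was not tested.

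Culture time alone moved far less. In DMSO, 3807 of 9822 genes (38.8%) were called between 1 and 4 h, 1723 higher (17.5%) and 2084 lower (21.2%), but 8 rose and 12 fell by 2-fold or more. The median absolute log2 fold change was 0.107 in DMSO and 0.502 with SK-3-91. The change differed between SK-3-91 and DMSO for 8020 genes (81.7%) by the interaction test. Of the 3256 genes called in both, 1222 (37.5%) went the same way and 2034 opposite ways. Across genes, which are not independent replicates, Pearson's r of the pairs of changes was -0.154 over 9820 genes, and the pairs come from different libraries.

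Of the 1806 genes changed at least 2-fold with SK-3-91, 1800 also differed from DMSO. The remaining 6 were named after their values were seen: ID3 (-1.14 against -1.07 in DMSO), DNAJB4 (1.1 against 0.93), RGS16 (1.05 against 1.21), TYRO3 (-1.13 against -0.74), and the uncertain SLC2A12 (-1.12 against -0.68) and ZNF701 (-1.02 against -0.67). A missed threshold does not show that these changed alike. DDIT4, an mTOR inhibitor induced by stress, had the highest change in DMSO (2.33) and was 2.04 with SK-3-91, though it is uncertain because 41.2% of its exon bases overlap exons on the opposite strand.

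**Figure D4:**
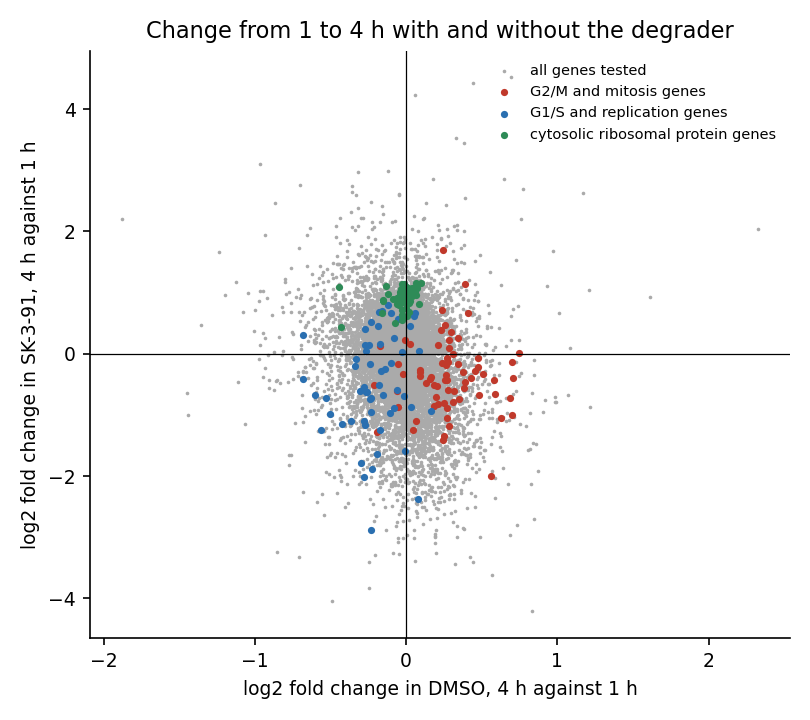
Log2 fold change from 1 to 4 h in DMSO (horizontal) and in SK-3-91 (vertical) for each of the 9820 genes (grey), with 3 gene lists in colour. Ribosomal protein genes form a compact group above 0 in SK-3-91 and near 0 in DMSO, and 43 of the 71 G2/M genes were called higher in DMSO and lower in SK-3-91.

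The share of 2-fold changes varied with exon number and gene span, and both side and size of a change varied with level. Genes were split into 5 bins of equal size with annotation from GENCODE release 29. In the bin with the fewest exons (median 3), 22.9% fell and 9.40% rose by 2-fold or more, and in the bin with the most (median 23) the shares were 5.52% and 2.71%. By gene span, such decreases went from 17.01% of the shortest bin to 4.39% of the longest. By mean level over the 8 libraries, they went from 24.6% of the lowest bin to 2.09% of the highest, and the median log2 fold change went from -0.35 to 0.35. Spearman's rho of change and level was 0.311 over 9789 genes, and 0.031 for the change in DMSO. The level includes the 4 h values themselves, and short transcripts, exon number and level overlap in the ribosomal protein genes, so these shares are descriptions.

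**Figure D5:**
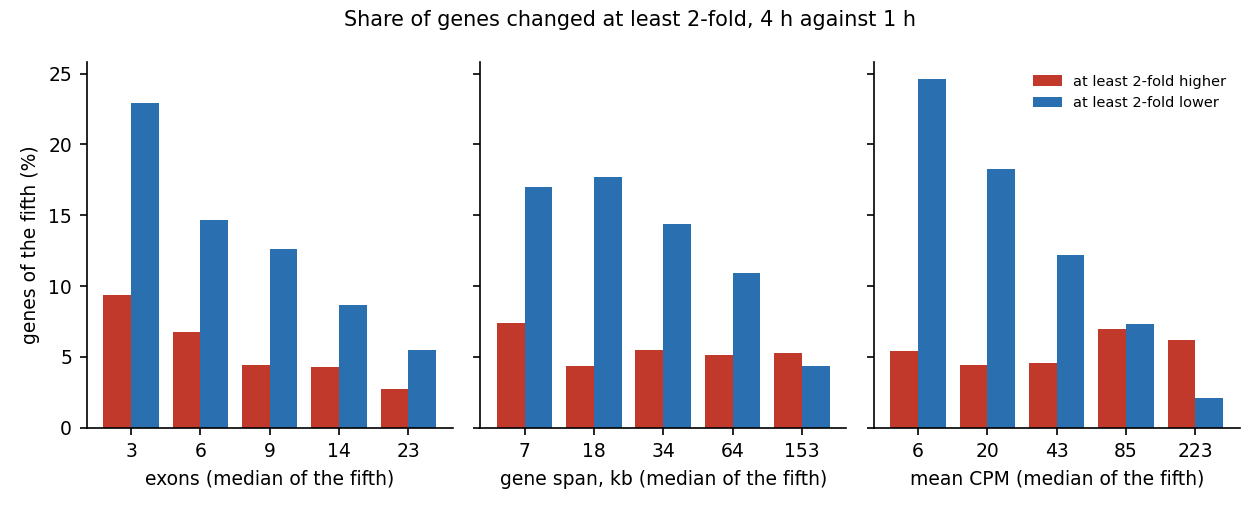
Share of genes that rose (red) or fell (blue) by 2-fold or more at 4 h against 1 h in 5 bins of exon number, gene span in kilobases and mean CPM, each labelled by the median of the bin. The share of falling genes drops from 22.9% to 5.52% over the exon bins and from 24.6% to 2.09% over the level bins.

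By chromosome, the share of genes at least 2-fold lower was 16.7% on chromosome 19 and 7.98% on the X chromosome, the ends of the range. Chromosome 19 held 175 of the ZNF genes, 55 of them at least 2-fold lower. Without the ZNF genes its share was 12.1%, against 12.9% of all genes tested. Among RNA classes, 1210 of 9455 protein-coding genes, 25 of 134 antisense genes and 11 of 61 long intergenic noncoding genes were at least 2-fold lower. Over all genes tested it was 1263 of 9820 (12.9%). Strand was not known to be kept in counting.

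For the genes with the largest changes, values from 4 to 8 h, which share the 4 h libraries with the comparison above, can be set beside them. Among increases, MXD1 changed by a further 1.65, RASL11A by 1.83, ZBTB34 by 0.96 and LSMEM1 by 0.57 on the log2 scale. Among decreases, CD2 changed by -0.81 and ZNF672 by -1.53. The values of SELPLG (-0.22), EOMES (-0.36) and ZNF200 (0.42) did not pass the test from 4 to 8 h. MYC, nearly level from 1 to 4 h, changed by -1.59 from 4 to 8 h, CDK4 by -1.22, and MYB, which fell before, by 0.01.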

How the data were processed

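Per the labels' protocols, total RNA came from snap-frozen MOLT4 pellets, and the BGISEQ-500 gave single-end reads 50 bases long. The authors' deposited table holds whole-number read counts per Entrez gene, not normalized, for 9822 genes. The build was hg19 and edgeR was among the tools, per the submitters' processing notes. How reads were aligned and counted, and whether strand was used, is not given in the sources used here. One deposited column of gene width, given in bases per the file headers, entered no test. A second deposited table, named by the authors for RPKM, holds log2 values that are a straight line in the counts once raised to the power of 2 (largest gap 3.9e-07%) and carry no gene length. It served only an alternative with limma 3.58.1.

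For the 8 libraries, edgeR 4.0.16 (R 4.3.3) fitted group means to the counts with TMM factors after filterByExpr, which removed ADM and ZBED8. Its quasi-likelihood F test gave p-values, adjusted by Benjamini and Hochberg's method over all 9820 genes at 0.05. The change in DMSO and its difference from SK-3-91 were fitted over 16 libraries with all 9822 genes, and 4 to 8 h values over 24. Standard errors of log2 fold changes are those implied by the F statistic, with a median of 0.059, and the common biological coefficient of variation was 0.0366. CPM values are scaled by TMM. Depth was 13.57 to 13.65 megareads at 1 h and 10.64 to 10.87 megareads at 4 h. The fit was also run on simulated data in which few genes changed, unlike here, so that run does not test the scaling. Every pair of libraries differed by more than sampling noise.

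Genes were named by rule: the 12 largest increases and 12 largest decreases with an adjusted p under 0.05, at least 5 CPM in the higher group and no overlap between times, up to 4 called members of each of 48 lists at 2 CPM or more, and 23 fixed genes. A few genes that the rule names are not reported here. Genes listed only by a log2 fold change without a standard error are further list members chosen after their values were seen. The comparison and the lists were chosen with earlier results of these data known. Genes sharing 20% or more of their 32-base words with other genes, or of exon bases with the opposite strand, are uncertain. GENCODE release 29 matched 9793 genes (99.7%). Its build differs from hg19, so it gave no coordinates, and promoter stretches from RefSeq on GRCh38.p14 were matched by Entrez number. Alternatives were other scaling factors, DESeq2 1.42.0, other filters, other sets of libraries, a replicate block, the deposited log2 values and a minimum fold of 1.5.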

Additional observations from a re-analysis of the deposited data

Results flagged for a closer look

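In 5 of 96 groups of 4 values looked at, 1 library lay apart by Dixon's ratio of the gap to the range. Chance alone marks about 1 in 20 such groups. LSMEM1 at 1 h had a ratio of 0.838, from a low value of 0.4 CPM in replicate 2. ZNF837 at 1 h had a ratio of 0.969, from a low value of 8.01 CPM in replicate 2. CDKN1B at 1 h had a ratio of 0.854, from a high value of 21.8 CPM in replicate 2. EGR1 at 4 h had a ratio of 0.928, from a high value of 5.6 CPM in replicate 1, and ID3 at 4 h had one of 0.976, from a high value of 3.2 CPM in replicate 4. The groups of all 5 genes stayed apart between 1 and 4 h.

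The change from 1 to 4 h differed between SK-3-91 and DMSO for 8020 of 9822 genes (81.7%) by the interaction test.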

How the results depend on the processing

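Of the 8300 calls, 7775 were kept when each of the 8 libraries was left out in turn. Over those fits the counts ranged from 3966 to 4072 higher, 4154 to 4205 lower, and by 2-fold or more 519 to 566 higher and 1251 to 1269 lower. The interaction count ranged from 7664 to 7711 with 1 replicate number left out of all 4 groups. The 4 h total ranged from 78.98% to 79.53% of the 1 h total, with p = 0.0571 by the exact permutation test, the smallest that 3 against 4 allows.

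Without scaling factors 2759 genes were higher and 5602 lower, 622 called genes turned sign, 266 genes rose by 2-fold or more, and the values of IGLL1 (-0.091), CDK4 (-0.19), CDK9 (-0.24), MYC (-0.17) and WEE1 (-0.13) reversed. Of 24 list medians above 0, 15 turned below 0, among them those of MAP kinase cascade genes (-0.038), autophagy and lysosome genes (-0.0055) and B-cell markers (-0.091). Of 47 lists, 19 changed their majority side under at least 1 of the RLE, upper-quartile or unscaled settings. With 1.5 as the smallest fold tested, 1432 genes rose and 1957 fell. limma-trend on the deposited log2 values, which carry a large offset that shrinks folds, gave 134 genes that rose and 691 that fell by 2-fold or more.

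Counts moved by under 1.5 times with RLE (4159 higher, 4136 lower) and upper-quartile factors (3726 and 4624), DESeq2 (4061 and 4035), no filter (4074 and 4228), at least 5 CPM (3905 and 4055) and all 24 libraries (4037 and 4193). Same-numbered libraries showed little common deviation (r from -0.074 to 0.107), which cannot show whether the numbers pair the samples. With a replicate block 4035 genes were higher and 4236 lower, and no named gene changed its call. Depth limits genes such as RASL11A and EOMES, which rest on 22 reads over the 1 h libraries and 15 reads over the 4 h libraries.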
